A study of Mus musculus with 32 samples.

Results

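Hsd17b1, Tsc22d3 and Cyp2e1 were chosen by name as genes of steroid hormone, glucocorticoid and ethanol metabolism, and were found by the gene titles on the arrays. Each had 1 spot, so that 3 of the 4696 gene spots on each array belonged to them. Their expression was measured in the prefrontal cortex of mice bred for a high (withdrawal seizure-prone, WSP) or low (withdrawal seizure-resistant, WSR) severity of ethanol withdrawal. The ethanol (EtOH) groups were injected with ethanol on the first day, at 1.5 g/kg in WSP-1, WSR-1 and WSR-2 mice and at a slightly higher dose in WSP-2 mice, and then breathed ethanol vapor for 72 hours. The Air groups were kept in air chambers. Both received pyrazole, an inhibitor of alcohol dehydrogenase, at 68.1 mg/kg, so that the controls carried the drug too. Tissue was taken 21 days later from adult mice.

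The 8 groups were female WSP EtOH and Air, female WSR EtOH and Air, male WSP EtOH and Air, and male WSR EtOH and Air, with 4 arrays each and 32 in all. Each array held RNA pooled from 2 animals. In each group replicates 1 and 2 were pools of the breeding line numbered 1 (WSP-1 or WSR-1), and replicates 3 and 4 were pools of the independently selected line numbered 2. All of these lines descend from one heterogeneous stock, so that a difference between WSP and WSR rests on 2 selected lines of each kind. With 4 arrays in a group, the precision of the values is limited by that number. RNA came from dissected tissue, in which fewer cells of a type and less RNA per cell cannot be told apart.

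Hsd17b1 encodes the 17-beta hydroxysteroid dehydrogenase known for turning oestrone into the more potent oestradiol, chiefly in ovary and placenta. Tsc22d3 encodes the glucocorticoid-induced leucine zipper, which the glucocorticoid receptor induces after hormone binding and which restrains NF-kB and AP-1 signalling. Cyp2e1 encodes the ethanol-inducible cytochrome P450 of the endoplasmic reticulum, abundant in liver. Along with catalase it is known for oxidising ethanol to acetaldehyde in brain, where alcohol dehydrogenase is scarce. Pyrazole is itself known to raise the Cyp2e1 protein in liver.

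Promoter windows are shown for Tsc22d3, titled as glucocorticoid-induced, and for Cyp2e1, titled as ethanol inducible. How ethanol or pyrazole raises Cyp2e1 was not tested. The windows are 300 bases around an annotated start, from RefSeq on build GRCm38.p6. Tsc22d3 had 3 such windows and Cyp2e1 had 1. The window at chrX:140600473-140600772 on the minus strand belongs to Tsc22d3, and capitals mark its 1 match to the glucocorticoid receptor half-site AGAACA, which lies on the other strand and so reads as its reverse complement. The window at chr7:140763569-140763868 on the plus strand belongs to Cyp2e1, and capitals mark its 1 match to the TATA box TATAAA.
Tsc22d3: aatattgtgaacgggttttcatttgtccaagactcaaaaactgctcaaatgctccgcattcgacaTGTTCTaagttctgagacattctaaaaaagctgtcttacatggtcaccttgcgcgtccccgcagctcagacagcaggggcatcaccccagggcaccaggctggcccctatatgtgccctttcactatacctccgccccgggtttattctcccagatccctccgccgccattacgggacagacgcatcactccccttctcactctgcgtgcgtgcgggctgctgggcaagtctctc
Cyp2e1: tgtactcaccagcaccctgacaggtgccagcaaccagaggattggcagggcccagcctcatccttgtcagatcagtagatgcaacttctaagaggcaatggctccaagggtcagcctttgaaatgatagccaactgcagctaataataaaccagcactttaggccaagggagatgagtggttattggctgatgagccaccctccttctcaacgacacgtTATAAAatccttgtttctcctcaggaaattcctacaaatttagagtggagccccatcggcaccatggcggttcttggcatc

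Both strands of all windows were searched for AGAACA, for the full glucocorticoid response element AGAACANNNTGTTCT, which contains the half-site, for TATAAA and for the HNF1 site GTTAATNATTAAC. The half-site was present in 19.0% of 32851 mouse promoter windows and TATAAA in 13.6%. The full element and the HNF1 site were each in 0.00913% of windows and had 0 matches in the windows of Tsc22d3 and Cyp2e1. The other 2 Tsc22d3 windows had 0 matches to any of the motifs. Such a match describes the letters only.

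The arrays differed in brightness, and this touches every comparison with male WSR mice and that of the sexes within WSP mice. Male WSP arrays had 518 to 604 gene spots at 2 times the array's background or more, against 1682 to 2040 on male WSR arrays. Female WSP arrays had 588 to 1428 such spots, against 783 to 1095 on female WSR arrays. In males, brightness and selected line cannot be told apart. Of the markers listed for a check of the tissue, none of the 6 chosen for neurons and none of the 6 chosen for astrocytes had a titled spot. Glul, an enzyme of astrocytes that was not on that list, had one. A hemoglobin alpha spot (Hba-a1, blood) and transthyretin (Ttr, choroid plexus and liver) were at 2 times background on 32 arrays. Another hemoglobin alpha spot was at that level on 0 arrays, and the other choroid plexus spot on 1. The endothelial gene Eng was at that level on 11 arrays.

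The Hsd17b1 spot was at 2 times background or more in nearly all samples, but stayed close to that level in male WSP mice, at 1.88 to 3.11 times background. It reached 2 times background on 29 of 32 arrays and was brighter than 85.1% to 92.2% of the gene spots of its own array. Its intensity in female WSP mice was 12.02, 40.03, 37.1 and 50.7 on the EtOH arrays (replicates 1 to 4), against 35.1, 52.8, 119 and 108 on the Air arrays. In female WSR mice it was 119, 134, 99.7 and 154 on the EtOH arrays, against 36.4, 79.9, 145 and 149 on the Air arrays. The EtOH and Air arrays overlapped in both female lines, and the dimmest array of all for Hsd17b1 was female WSP EtOH replicate 1.

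In male WSP mice the Hsd17b1 intensity was 23.8, 24.7, 23.4 and 27.7 on the EtOH arrays, against 43.2, 37.0, 34.4 and 28.5 on the Air arrays. These values were close together, and the highest EtOH value lay just below the lowest Air value. How many other spots separate in this way was not counted. The EtOH arrays also tended to be dimmer as a whole, with 518 to 557 gene spots at 2 times background, against 543 to 604 on the Air arrays. In male WSR mice it was 659, 872, 819 and 700 on the EtOH arrays, against 399, 445, 731 and 408 on the Air arrays, and 1 Air array lay among the EtOH arrays. The 3 arrays under 2 times background were female WSP EtOH replicate 1 and male WSP EtOH replicates 1 and 3.

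The Tsc22d3 spot reached 2 times background on all 8 male WSR arrays and on 0 of the other 24. In male WSR mice its intensity was 93.7, 155, 140 and 175 on the EtOH arrays, against 62.2, 93.9, 164 and 88.9 on the Air arrays, between 5.17 and 13.6 times background. The EtOH and Air arrays overlapped. On the other 24 arrays the intensity was between 7.02 and 26.6, with a median of 15.4, which was 0.768 to 1.78 times background. In female WSP, female WSR and male WSP mice Tsc22d3 was therefore not well above background, and those values give only an upper bound of its level.

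The Cyp2e1 spot showed the same division, with 8 of 8 male WSR arrays and 0 of the other 24 at 2 times background. In male WSR mice its intensity was 34.2, 71.7, 66.5 and 138 on the EtOH arrays, against 48.0, 57.2, 89.1 and 48.9 on the Air arrays. The EtOH arrays held both the lowest and the highest of these 8 values, at 3.08 and 9.60 times background. On the other 24 arrays the intensity was between 7.44 and 40.2, with a median of 15.3, which was 0.861 to 1.65 times background.

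Many other spots divided the arrays in the same way. Of the 2084 gene spots that were at 2 times background on at least 4 arrays, and so kept for testing, 252 (12.1%) reached that level on all 8 male WSR arrays and on no other. Tsc22d3 and Cyp2e1 passed this filter only through the male WSR arrays, so no test of them between lines or sexes is given here. Within each array, the Tsc22d3 spot was brighter than 80.05% to 83.05% of gene spots on male WSR arrays and than 18.8% to 81.6% on the others. Cyp2e1 was brighter than 47.2% to 86.3% of gene spots on male WSP arrays and than 71.4% to 80.6% on male WSR arrays, so that its rank within the array overlapped between those lines although its intensity did not.

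**Figure D1:**
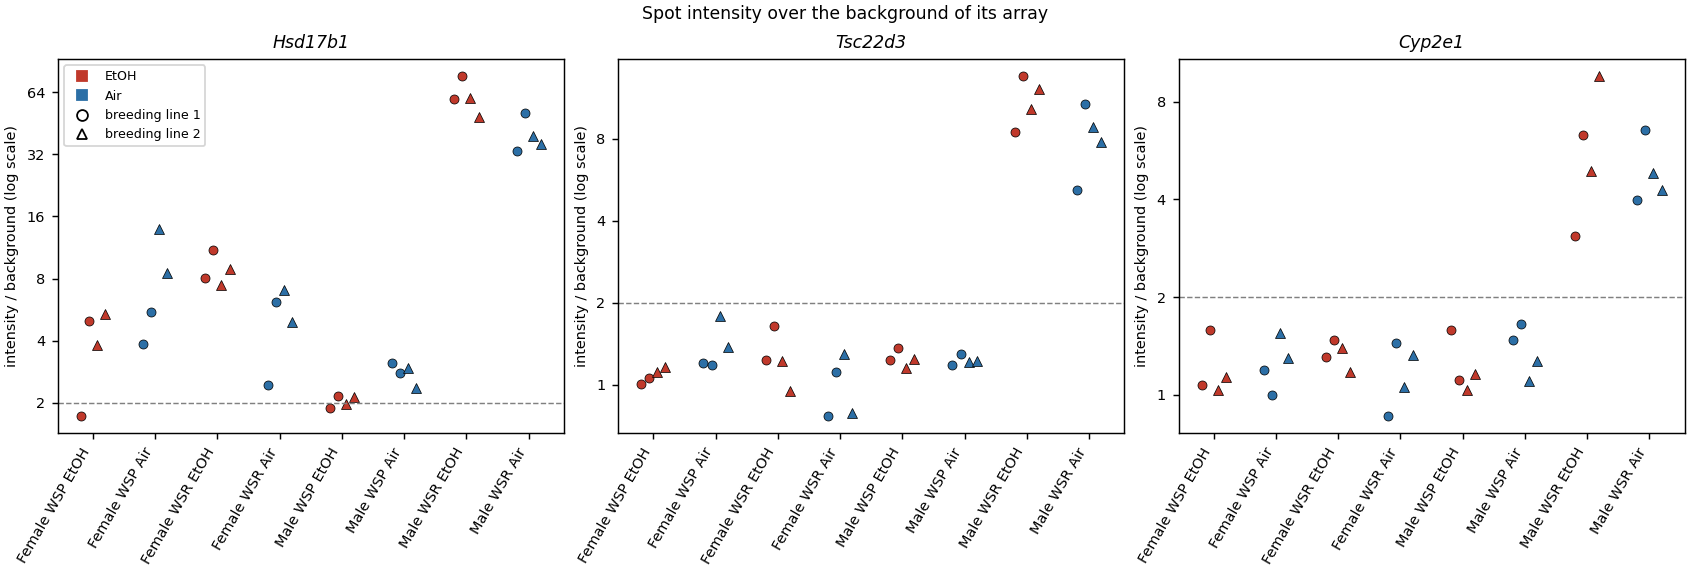
Spot intensity divided by the background of its array (log axis) for Hsd17b1, Tsc22d3 and Cyp2e1, 1 point per array, by group, with circles for breeding line 1, triangles for breeding line 2 and a dashed line at 2 times background. Tsc22d3 and Cyp2e1 lie above the line on the 8 male WSR arrays alone, and Hsd17b1 lies above it on 29 of 32 arrays.

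For the tests, intensities were background-corrected, expressed as log2 and quantile normalized, which gives every array the same distribution of values. On this scale Hsd17b1 averaged 7.12 ± 0.12 in male WSP EtOH and 7.36 ± 0.057 in male WSP Air mice (SD, n = 4 for each group here and below). It averaged 7.81 ± 0.15 in male WSR EtOH and 7.50 ± 0.19 in male WSR Air mice. In females it averaged 6.93 ± 0.28 in WSP EtOH and 7.19 ± 0.13 in WSP Air, and 7.26 ± 0.088 in WSR EtOH and 7.13 ± 0.31 in WSR Air mice. From the highest to the lowest, the order was male WSR EtOH, male WSR Air, male WSP Air, female WSR EtOH, female WSP Air, female WSR Air, male WSP EtOH and female WSP EtOH, and every neighbouring pair in this order overlapped.

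Tsc22d3 averaged 6.39 ± 0.022 in male WSR EtOH and 6.34 ± 0.085 in male WSR Air mice, the only groups in which it was well above background. Its measured means in the other 6 groups ran from 5.79 ± 0.041 in female WSP EtOH to 6.17 ± 0.16 in male WSP EtOH mice. Cyp2e1 averaged 6.13 ± 0.12 in male WSR EtOH and 6.16 ± 0.059 in male WSR Air mice. Its measured means elsewhere ran from 5.83 ± 0.047 in female WSP Air to 6.25 ± 0.30 in male WSP Air mice, so that the highest mean of Cyp2e1 on this scale belonged to a group where it was not well above background. The male WSP arrays spread most, between 5.80 and 6.77. The male WSP-1 arrays averaged 6.40 ± 0.39 against 5.98 ± 0.18 for the male WSP-2 arrays (SD, n = 4 each), with overlapping values.

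**Figure D2:**
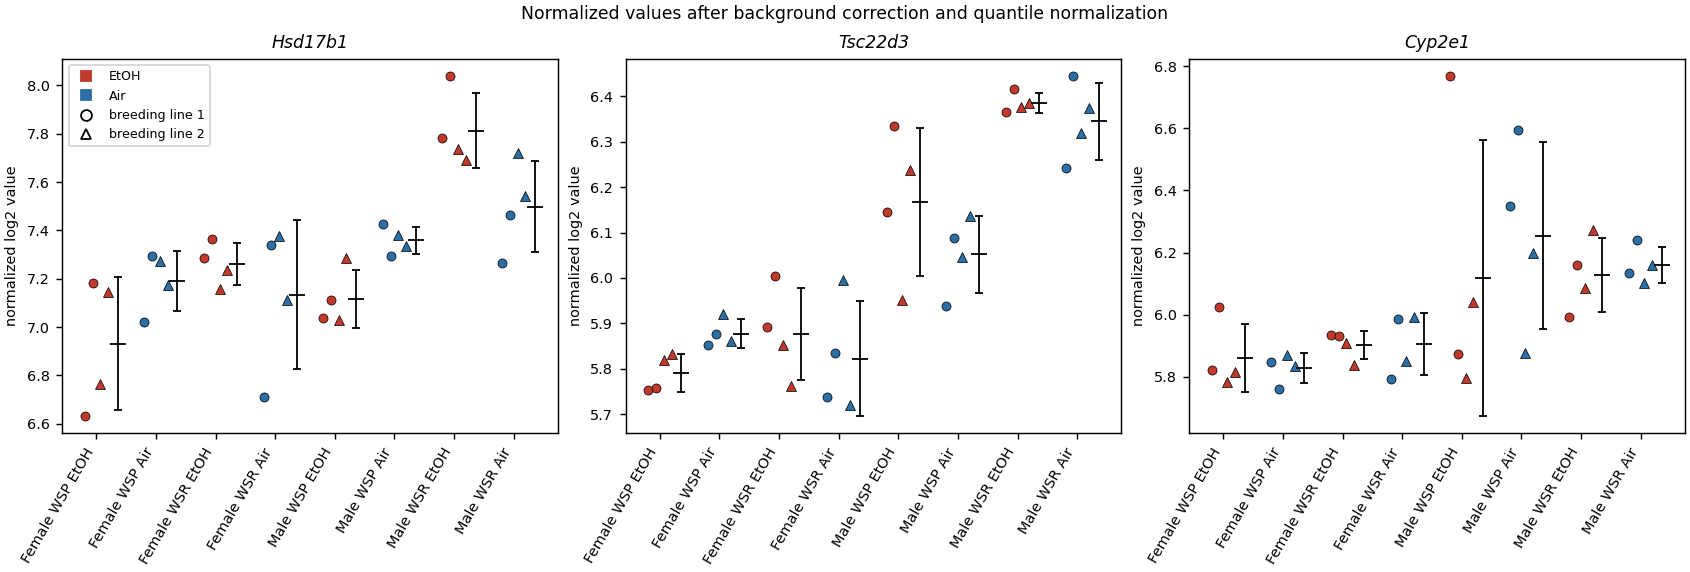
Normalized log2 value of Hsd17b1, Tsc22d3 and Cyp2e1 on each array, by group, with circles for breeding line 1, triangles for breeding line 2, and the mean ± SD of the 4 arrays beside the points. Hsd17b1 averages 7.81 and 7.50 in male WSR EtOH and Air mice, Tsc22d3 6.39 and 6.34, and the male WSP arrays of Cyp2e1 run from 5.80 to 6.77.

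The first comparison asked whether ethanol exposure left a difference after 21 days. No ethanol contrast of Hsd17b1, Tsc22d3 or Cyp2e1 passed the test, which was a limma fit over the 8 groups with Benjamini-Hochberg adjustment over the 2084 spots and a call at an adjusted p under 0.05. Few spots passed at all. The share called was 0.384% in female WSP (8 spots), 0.048% in female WSR (1), 0.048% in male WSP (1), 0% in male WSR (0) and 0% over both sexes and lines (0). At an unadjusted p under 0.05 the numbers were 260, 270, 176, 64 and 98 spots, in the same order.

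Hsd17b1 had negative estimates in WSP mice and positive ones in WSR mice, of which the female WSR one turned negative under cyclic loess (-0.0094) and without Air replicate 1 of that group (-0.015). The EtOH minus Air difference on the log2 scale was -0.26 ± 0.13 in female WSP (SE, adjusted p = 0.43) and -0.24 ± 0.13 in male WSP mice (adjusted p = 0.66), with 4 of 4 EtOH arrays below the Air mean in both. It was 0.13 ± 0.13 in female WSR (adjusted p = 0.74) and 0.31 ± 0.13 in male WSR mice (adjusted p = 1.00, unadjusted p = 0.025), with 4 of 4 EtOH arrays above the Air mean in both. Over both sexes and lines the difference was -0.015 ± 0.067 (adjusted p = 0.96). All of these adjusted p-values are from limma's moderated test on 4 arrays a group. The male WSP estimate rests on EtOH arrays where the spot was at only 1.88 to 2.16 times background. These signs ran the same way as array brightness. Median gene spots at 2 times background, EtOH against Air, were 953.5 and 1122.5 in female WSP and 537.5 and 572 in male WSP mice. They were 1071.5 and 860.5 in female WSR and 1974.5 and 1775 in male WSR mice. The part of brightness in the estimates was not tested.

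The series asks how genetic background bears on the ethanol response, and the test of that question is the difference between the responses of the lines. For Hsd17b1 the WSP response minus the WSR response was -0.47 ± 0.13 on the log2 scale (SE). Its unadjusted p was 0.0014 and its adjusted p 0.16, so that it did not pass, in a comparison where 0.24% of spots (5) were called and 262 had an unadjusted p under 0.05. Without male WSR mice, from the female arrays alone, the difference was -0.39 ± 0.19 (adjusted p = 0.32). It passed under median scaling, at -0.84 with an adjusted p of 0.0085, a setting that shifted the median of all spots in this contrast by -0.20 and raised the number called to 570. It also passed with the authors' table, at -1.08 score units (adjusted p = 0.041). Under cyclic loess it shrank to -0.21 and did not pass (limma adjusted p = 0.56). Nor did it pass with breeding lines 1 alone (-0.69, adjusted p = 0.27) or breeding lines 2 alone (-0.25, adjusted p = 0.69).

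The same differences were taken apart by breeding line. With 2 EtOH arrays against 2 Air arrays, the EtOH minus Air difference of Hsd17b1 was -0.25 in female WSP-1, -0.27 in female WSP-2, -0.28 in male WSP-1 and -0.20 in male WSP-2 mice. All 4 WSP estimates were thus negative and close to each other. It was 0.30 in female WSR-1 and 0.55 in male WSR-1 mice, against -0.048 in female WSR-2 and 0.083 in male WSR-2 mice. The larger positive estimates of the WSR mice were those of WSR-1. None of these 8 differences passed the test in the fits of breeding lines 1 or 2 alone (SE 0.22 and 0.17, lowest limma adjusted p = 0.51).

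**Figure D3:**
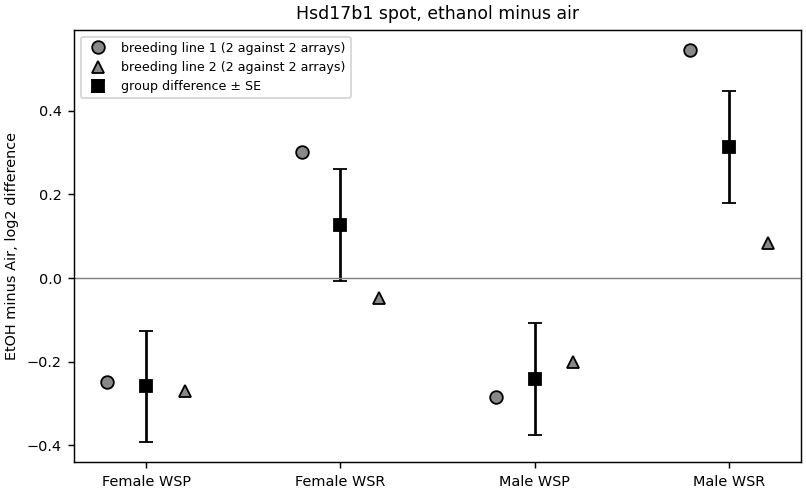
EtOH minus Air difference of the Hsd17b1 spot (log2) in each sex and selected line, with the group difference ± SE as squares (4 against 4 arrays) and the breeding lines as circles (line 1) and triangles (line 2), each from 2 against 2 arrays. The WSP estimates lie between -0.28 and -0.20, and the WSR estimates between -0.048 and 0.55.

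For Tsc22d3 and Cyp2e1 an ethanol difference could be measured in male WSR mice alone. Tsc22d3 differed there by 0.041 ± 0.076 (SE) and Cyp2e1 by -0.032 ± 0.14 on the log2 scale, each with an adjusted p of 1.00 in limma's test. The sign of the Cyp2e1 value turned under median scaling (0.13), cyclic loess (0.067) and with the authors' table (0.051 score units), and it passed under none of them. In the other groups both EtOH and Air arrays were not well above background, and no fold is given.

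The second comparison was between the selected lines, over both treatments. Hsd17b1 was lower on the WSP than on the WSR arrays, a call that did not hold without the male WSR arrays. It averaged 7.15 over the 16 WSP arrays and 7.43 over the 16 WSR arrays, a difference of -0.28 ± 0.067 (SE, limma adjusted p = 0.00079) or a fold of 1.21, and 16 of 16 WSP arrays lay below the WSR mean although the groups overlapped. This p-value measures the spread between pools, not that between independently selected lines. In this comparison 54.4% of the kept spots were called, with 32% called lower and 22.4% called higher in WSP mice. By breeding line Hsd17b1 averaged 7.12 ± 0.24 in WSP-1 and 7.17 ± 0.20 in WSP-2, against 7.41 ± 0.39 in WSR-1 and 7.45 ± 0.26 in WSR-2 (SD, n = 8 each). With breeding lines 1 alone the adjusted p was 0.052, and the size of the difference moved to -0.44 under cyclic loess and -1.78 under median scaling, where the median of all spots shifted by -0.42.

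The line difference of Hsd17b1 was tested apart in each sex. In males it was -0.42 ± 0.094 (limma adjusted p = 0.00031, fold 1.34), with 8 of 8 WSP arrays below the WSR mean, in a comparison where 58.3% of spots were called and 34% were called lower. In females it was -0.14 ± 0.094 (adjusted p = 0.41), where 12.1% of spots were called (7.53% higher and 4.56% lower). Without male WSR mice the line comparison is this female one, so the call over both sexes did not hold without them. The female value passed under median scaling (-0.55, adjusted p = 0.0071). The male value kept its sign and its call but changed in size, to -0.72 under cyclic loess and -3.00 under median scaling, which shifted the median of all spots by -0.69, while the main setting shifted it by -0.0046. On the male WSP arrays Hsd17b1 was close to 2 times background (median 2.26), which limits the precision of the male fold. The part of array brightness in the male value cannot be told apart from line.

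For Tsc22d3 the lines could be set side by side in males only as a measured level against an upper bound. Its measured mean was 6.11 ± 0.13 over the 8 male WSP arrays, where it was not well above background, and 6.37 ± 0.062 over the 8 male WSR arrays (SD). No fold is given, because the dimmest level that counts as measured on the male WSP arrays averaged 7.05, above the male WSR mean of Tsc22d3. In females both lines were below 2 times background. Against female arrays, male WSR arrays had at least 1.07-fold (female WSP) and at least 1.08-fold (female WSR) more Tsc22d3 signal on the normalized scale. Tsc22d3 passed the filter through the male WSR arrays alone, and 252 kept spots (12.1%) divided the arrays in the same way. These bounds are descriptions, in which the brightness of the male WSR arrays cannot be told apart from sex or line. A bound of this kind sets the bright group's mean against the higher of the spot's own value and the lowest signal well above background on each dim array.

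For Cyp2e1 not even a direction could be given between the lines. Its measured mean was 6.19 ± 0.36 on male WSP arrays, where it was not well above background, and 6.14 ± 0.088 on male WSR arrays (SD, n = 8 each). The order of these means turned under cyclic loess, median scaling and with the authors' table. The lowest signal that counts as measured exceeded the male WSR mean of Cyp2e1 on average in every other set of arrays, so that no fold is given for it.

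The third comparison was between the sexes, over both lines and treatments, and 59.2% of spots were called in it, with 35.5% called higher and 23.8% lower in males. Hsd17b1 was higher in males. It averaged 7.45 over the 16 male and 7.13 over the 16 female arrays, a difference of 0.32 ± 0.067 (SE, limma adjusted p = 0.00015), and 13 of 16 male arrays lay above the female mean. Median scaling moved it to 0.81. Without male WSR mice the sex comparison is within WSP, where Hsd17b1 differed by 0.18 ± 0.094 and did not pass (adjusted p = 0.21). Brightness differed there too, with a median of 554 gene spots at 2 times background on male WSP arrays and 953.5 on female WSP arrays. Its part in the value was not tested.

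For Tsc22d3 and Cyp2e1 the sexes could not be compared beyond the bounds above. Among males only the WSR arrays measured them above 2 times background, and the female arrays did so on 0 of 16. In WSP mice both sexes were below that level.

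**Figure D4:**
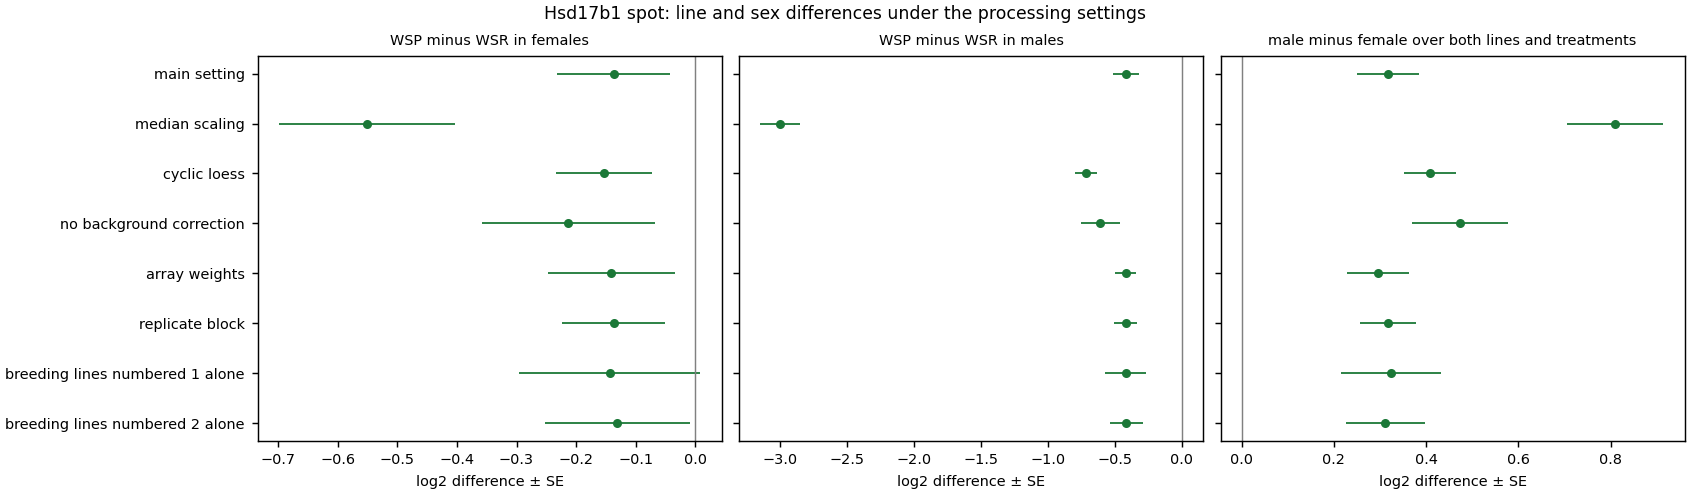
Line differences of the Hsd17b1 spot in females and in males, and its sex difference, as log2 difference ± SE under 8 processing settings. The line difference lies below 0 and the sex difference above 0 in every setting shown, and in males the line difference runs to -3.00 under median scaling.

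Blood and choroid plexus spots moved with line in males as well, and their part in the results was not tested. Hba-a1 was higher in WSP than in WSR males by 0.40 ± 0.087 on the log2 scale (limma adjusted p = 0.00021) but lower under median scaling (-2.06). Ttr was lower in WSP males by -0.29 ± 0.097 (adjusted p = 0.010), but higher with the authors' table (0.75 score units). Of the 4 marker spots that could be tested, under quantile normalization 3 were called higher and 1 lower in WSP males, beside 24.4% of all spots called higher and 34% lower, and 0 of the 4 were called in females, beside 12.1% of all spots. The summed signal of the 2 blood spots ran from 15.5 to 21.5 times background on male WSP arrays and from 77.5 to 120 on male WSR arrays. That of the 2 choroid plexus spots ran from 8.30 to 16.6 on male WSP and from 78.0 to 157 on male WSR arrays. Most of each sum came from its bright spot, Hba-a1 or Ttr. Eng, the 1 vessel spot, ran from 1.06 to 1.58 on male WSP and from 1.40 to 3.50 on male WSR arrays. It was also called in the comparison of the ethanol responses, at 0.74 ± 0.16 (SE, limma adjusted p = 0.040), as were 0.24% of all spots. Under cyclic loess it was not called (0.34, adjusted p = 0.19). The call rests in part on the male WSP arrays, where Eng stayed below 2 times background.

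The arrays held 12 other spots of the 3 pathways. They were the steroid genes Esr1, Sts and hydroxysteroid sulfotransferase, the glucocorticoid targets Glul and Cdkn1a, and the cytochrome P450 genes Cyp2a4, Cyp2b9, Cyp2c40, Cyp2d9, Cyp2j6, Cyp3a25 and Cyp4a14. Only Sts, Glul, Cyp2a4 and Cyp2c40 passed the filter. Esr1, the estrogen receptor alpha, was at 2 times background on 0 arrays, as was the cell cycle inhibitor Cdkn1a.

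In the main setting 0 of these 4 spots were called in any ethanol comparison, beside 0% to 0.384% of all spots, or in the comparison of ethanol responses, beside 0.24%. Sts, Cyp2a4 and Cyp2c40 were near background on nearly all arrays outside male WSR mice, so a missing call there says little of them. Under median scaling, where 570 spots were called in that comparison, Glul (-1.14, adjusted p = 0.0077) and Cyp2c40 (-0.23, adjusted p = 0.041) passed. The Cyp2c40 value rests largely on arrays where the spot was not well above background. Sts, which encodes the sulfatase that frees steroids from their sulfate esters, was at 2 times background on 8 of 8 male WSR arrays, at 4.65 to 13.1 times background, and on 1 of the other 24. Cyp2a4, a steroid 15-alpha hydroxylase, reached 2 times background on 6 arrays, all from male WSR mice. Cyp2c40 reached that level on 5 of 8 male WSR arrays, at up to 2.42 times background. It also did so on 1 of the other 24, at 3.49 times background. Sts, Cyp2a4 and Cyp2c40 thus passed the filter mainly or wholly through male WSR arrays, as Tsc22d3 and Cyp2e1 did. No test or fold of them between lines or sexes is given. Between the lines in females Glul was not called (limma adjusted p = 0.73), in a comparison where 12.1% of all spots were. No female result is read for Sts, Cyp2a4 and Cyp2c40. Each was at 2 times background on at most 1 of the 24 arrays outside male WSR mice.

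Glul encodes glutamine synthetase, the astrocyte enzyme that turns glutamate into glutamine, and was the most intense of the pathway spots, at 2 times background on all 32 arrays. It was lower in males than in females by -0.17 on the log2 scale (limma adjusted p = 0.049), but by 0.059 higher under median scaling (adjusted p = 0.73). It was not called in any line or ethanol comparison in the main setting. Its WSP minus WSR difference in males was 0.22 there (adjusted p = 0.083) and turned to -0.32 under cyclic loess (adjusted p = 0.017) and -2.54 under median scaling (adjusted p = 2.62e-13).

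The titled spots whose normalized values ran most like each gene were found by Pearson's r over the 32 arrays, among 451 candidates. For Hsd17b1 they were proteasome subunit alpha type 1 (r = 0.86), mutS homolog 3 (0.81), calpain 4 (0.81), sid23p (0.79) and calumenin (0.79). After the 8 group means were removed, these r values were 0.49, 0.47, 0.44, 0.50 and 0.60. For Tsc22d3 the closest were an mRNA titled clone:2-37 (r = 0.86), Pgc2 (0.84) and bone morphogenetic protein 1 (0.84), followed by sialyltransferase 4c (0.83) and Cyp2a4 (0.82). Within groups they were 0.048, 0.38, 0.52, 0.20 and 0.43. The closest spots to Cyp2e1 were less alike, led by an mRNA titled clone:2-68 (r = 0.67), muscle creatine kinase (0.62) and TMEFF2 (0.62), with within-group values of 0.42, 0.41 and 0.70.

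The 3 genes were unevenly alike among themselves. Hsd17b1 and Tsc22d3 had an r of 0.72 over the 32 arrays, 0.39 within groups and 0.38 without the male WSR arrays. Hsd17b1 and Cyp2e1 had 0.34, 0.038 and 0.24 in the same order, and Tsc22d3 and Cyp2e1 had 0.49, 0.046 and 0.43. The points are arrays that share brightness within a group, and these correlations are descriptions. Residual SDs about the group means were 0.18 for Hsd17b1, 0.094 for Tsc22d3 and 0.20 for Cyp2e1, beside a median of 0.17 over all kept spots.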

How the data were processed

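Array signals were deposited as 1 spot intensity and 1 background intensity per array, not subtracted, and per the labels the RNA was labelled with 33P. Neither array platform nor scanner is named in the labels. A table of scores that the authors deposited was an alternative: the scores equal a straight line in log2 intensity on each array to within 1.07e-06 and are blank for gene spots not above background. Of its columns 0 lacked a sample. Files were joined by spot number, since 1 file had its rows in another order.

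Intensities were corrected with normexp (offset 50), taken to log2 and quantile normalized over 4696 gene spots. The filter kept 2084 spots that reached 2 times background on 4 arrays or more. The offset compresses differences of dim spots. limma 3.58.1 in R 4.3.3 was fitted with 1 mean per group (24 residual degrees of freedom), an intensity trend and 10 contrasts, and tested on simulated data. Nothing says that pools of a breeding line are independent draws of a phenotype, so p-values measure the spread between pools. The genes, lists and alternatives were chosen with earlier results of these data known. The genes named are the 3 genes, called and most intense members of the lists, and the most alike spots. Alternatives were scaling by the median, cyclic loess, leaving out the background correction, no filter, a stricter filter, the authors' table, no trend, array weights, a replicate block, breeding line, single breeding lines, no male WSR arrays and each array left out. Figures were drawn with matplotlib 3.10.9. 1 marker gene is not reported here by name.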

Additional observations from a re-analysis of the deposited data

Results flagged for a closer look

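The normalized value of Cyp2e1 in female WSP EtOH replicate 2 was 6.02, while the other 3 arrays of that group lay between 5.78 and 5.82. The gap to the nearest of them was a larger part of the group's range than Dixon's 95% critical value for 4 samples allows. The spot was at 1.58 times background on that array, so Cyp2e1 was not well above background there. This was 1 of 24 groups tested (8 groups for each of the 3 genes), and chance flags about 1 in 20.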

How the results depend on the processing

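For the called results of Hsd17b1 between lines and sexes, leaving out any 1 array kept direction and call. Differences of Tsc22d3 and Cyp2e1 between lines or sexes are set against arrays where they were not well above background, and are listed as values alone. Median scaling gave Hsd17b1 0.041 for EtOH minus Air over all groups, -0.84 for the difference of the line responses (adjusted p = 0.0085) and -0.55 for WSP minus WSR in females (adjusted p = 0.0071). It gave Cyp2e1 0.13 for EtOH minus Air in male WSR mice, -0.40 for WSP minus WSR over both sexes and -0.73 in males. Cyclic loess gave Hsd17b1 -0.0094 for EtOH minus Air in female WSR mice and 0.0053 over all groups, and gave Cyp2e1 0.067 in male WSR mice and -0.29 for WSP minus WSR in males. Without background correction Cyp2e1 had -0.0065 for WSP minus WSR in males. The authors' table gave -1.08 score units for the difference of the Hsd17b1 responses and, for Cyp2e1, 0.051 for EtOH minus Air in male WSR mice, -0.62 for WSP minus WSR over both sexes and -0.99 in males. Array weights gave Hsd17b1 0.42 for EtOH minus Air in male WSR mice, which then passed (adjusted p = 0.018), and 0.0071 over all groups. Breeding lines 1 alone gave Hsd17b1 0.079 for EtOH minus Air over all groups and -0.28 for WSP minus WSR (adjusted p = 0.052), and Cyp2e1 0.11 for WSP minus WSR. Breeding lines 2 alone gave Hsd17b1 -0.048 for EtOH minus Air in female WSR mice, Tsc22d3 -0.12 for WSP minus WSR, and Cyp2e1 0.048 for EtOH minus Air in male WSR mice and -0.18 for WSP minus WSR in males. The cause of these changes was not tested. Without male WSR arrays, a setting chosen after seeing the data, WSP minus WSR was -0.14 for Hsd17b1 and -0.016 for Tsc22d3, and male minus female was 0.18 for Hsd17b1.

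With 1 array left out, Hsd17b1 ran from -0.015 to 0.21 for EtOH minus Air in female WSR mice and from -0.051 to 0.0098 over all groups. Cyp2e1 ran from -0.080 to 0.014 for EtOH minus Air in male WSR mice, from -0.062 to 0.024 for WSP minus WSR and from -0.065 to 0.11 for it in males. Same-numbered arrays of different groups deviated together only weakly, with a median r of 0.026 over 112 pairs and 25 pairs over 0.1. Differently numbered arrays had a median r of -0.013 over 336 pairs and 34 pairs over 0.1. Numbers were not taken as pairing in the main fit. With the replicate block the difference of the Hsd17b1 responses was -0.47 (adjusted p = 0.15), and the block changed no call of the 3 genes. The stricter filter gave no value for Tsc22d3 or Cyp2e1, which it removed, as did leaving out the male WSR arrays before filtering. Outside male WSR mice signal over background limits both genes to upper bounds.

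Numbers of called spots ran, between settings, from 1 to 148 in female WSP mice for EtOH minus Air, from 0 to 27 in female WSR, from 0 to 7 in male WSP, from 0 to 143 in male WSR and from 0 to 4 over all groups. They ran from 0 to 570 for the difference of responses, from 448 to 1749 for WSP minus WSR, from 76 to 759 for it in females, from 561 to 1805 in males and from 508 to 1510 for male minus female.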
